A study of Mus musculus with 6 samples.

Results

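The genes described here are the Zfp genes that were measurably transcribed in RAW264.7 cells, a mouse macrophage line established from a tumour induced by Abelson murine leukaemia virus. Zfp is the mouse prefix for numbered zinc finger protein genes. A gene was included when its row carried an Ensembl identifier, its symbol was Zfp followed by a number, the symbol did not begin with Zfp36, and its mean over all 6 libraries was at least 1 FPKM (fragments scaled by transcript length and by library size). The members were thus chosen by their mean FPKM. These conditions gave 257 genes out of 404 Zfp genes and 22105 Ensembl genes in the table, of which 10229 reached the same mean. The comparison was between 3 libraries from cells given phosphate buffered saline (PBS) and 3 from cells exposed for 24 h to nanoparticles named CM-PEG-PLGA@DOX/R848, at a dose equivalent to 2 µg/mL DOX. DOX is doxorubicin, which poisons topoisomerase II, and R848 is resiquimod, an agonist of endosomal Toll-like receptors. PLGA and PEG are the polymers of the particle, and CM is not spelled out in the labels. No library received empty particles or either drug alone, so the parts of the particle cannot be told apart. Whether the replicates were separate cultures is not stated in the labels. The p-values therefore reflect the spread among these 6 samples and no more, and that spread may be technical.

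Most Zfp genes encode proteins with tandem C2H2 fingers, each a short loop held by a zinc ion that reads a few bases of DNA. Many also carry a KRAB box near the amino terminus, which recruits the corepressor Trim28 (KAP1). Trim28 in turn brings the histone methyltransferase Setdb1, HP1 proteins and the NuRD complex, and many KRAB zinc finger proteins silence retroelements in this way. KRAB zinc finger genes are often duplicated in tandem and lie in clusters of related genes. Members without a KRAB box are more diverse and include activators of promoters, RNA-binding proteins and ubiquitin ligases.

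The libraries were alike within each group, with Pearson correlations across the tested genes of 0.9954 to 0.9957 between PBS libraries and 0.9911 to 0.9941 between nanoparticle libraries, against 0.8798 to 0.8844 between groups. More genes had a value above 0 after nanoparticles (15723 to 15989) than after PBS (12678 to 12872). Of 7 macrophage markers all were expressed, 5 fell, 1 rose (Adgre1) and 1 was not called, and their summed level was 2730 to 2810 FPKM with PBS and 1200 to 1270 FPKM with nanoparticles. Markers of fibroblasts, epithelium, T cells, B cells and neutrophils did not exceed 0.697 FPKM in any library, with Krt18 and Cd3g at 0 in every library. In bulk RNA, fewer expressing cells and less RNA per cell cannot be told apart.

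The members were mostly low. Their mean over all libraries had a median of 3.86 FPKM and ran from 1.02 to 124 FPKM, with 155 members under 5 FPKM and 43 at 10 FPKM or more. This mean chose the members, so it is a description. Just inside the threshold lay Zfp503 and Zfp345 at 1.02 FPKM each and Zfp458 at 1.05 FPKM, and just outside lay Zfp433 at 0.998, Zfp709 at 0.99 and Zfp39 at 0.988 FPKM. Of the 147 Zfp genes under the threshold, 105 had the higher mean with nanoparticles, 23 with PBS, and 19 were listed at 0 in every library. The mean of 21 members was under 1 FPKM with PBS, so these were included through their nanoparticle level and could only be higher there (19 called, 2 not); Zfp119a and Zfp119b below are among them. The mean of 3 members (Zfp41, Zfp248 and Zfp661) was under 1 FPKM with nanoparticles, so these were included through their PBS level and could only be lower with nanoparticles. The exclusion of symbols beginning Zfp36 removed 9 genes, the CCCH-type Zfp36 group of 4 and also 5 numbered genes (Zfp362, Zfp365, Zfp366, Zfp367 and Zfp369), of which 3 reached 1 FPKM. Among those 3, Zfp362 fell (log2 fold change of FPKM + 1 of -0.99, limma adjusted p = 2.7e-05), Zfp369 rose (1.06, limma adjusted p = 2.4e-06) and Zfp367 did not pass (0.01).

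Most of the expressed Zfp genes had a higher FPKM, a level relative to the whole library, after nanoparticle treatment. Of the 257 members, 163 (63.4%) rose and 29 (11.3%) fell at a limma adjusted p under 0.05, and 65 did not pass. Over all 10229 genes tested, 77.2% passed, 42.7% upward and 34.5% downward. The median log2 fold change of FPKM + 1 was 0.41 over the members (quartiles 0.05 and 0.79) and 0.08 over all genes tested. Since the added 1 FPKM shrinks the change of low genes, these values understate it. The summed level of the members was 1427 ± 38.6 FPKM with PBS and 1919 ± 80.7 FPKM with nanoparticles (SD, n = 3 each).

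The groups did not overlap for 165 members upward and 32 downward, against 43.7% and 35.1% of all genes tested. A rise of at least 1 on the log2 scale was found for 31 members (12.1%), close to the 11.4% of all genes tested, and a fall of as much for 3 (1.17%, against 6.29%). The share that rose was above that of all tested genes of like level in each range of mean FPKM, at 52.7% against 47.2% for 1 to 2 FPKM, 68.0% against 42.2% for 2 to 5 FPKM, 71.2% against 43.9% for 5 to 10 FPKM, and 55.8% against 42.0% above that. These shares include members with a PBS mean under 1 FPKM (21 in all), which could only be higher. Zfp503 and Zfp458 in the lowest range are examples. The ranges were not compared without such members. The third libraries stood highest within their group for many members, PBS replicate 3 for 51.8% (38.0% of all genes tested) and nanoparticle replicate 3 for 66.1% (44.5%). Without both of them, 160 members rose and 30 fell.

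**Figure D1:**
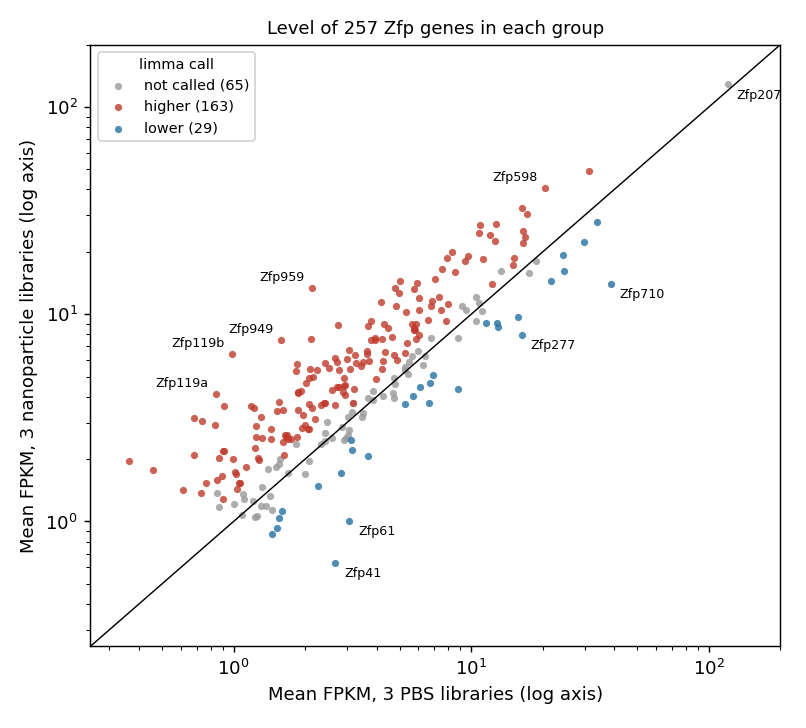
Mean FPKM of each of 257 Zfp genes in 3 PBS libraries (x, log axis) and 3 nanoparticle libraries (y, log axis), coloured by the limma call, with the line of equal level. Most points lie above the line (163 higher, 29 lower), Zfp959, Zfp119b and Zfp949 lie far above it, and Zfp41, Zfp61, Zfp277 and Zfp710 lie below.

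Members with and without a KRAB motif both moved mainly upward. A protein was scored at 18 positions conserved in KRAB boxes, and 11 or more matches counted as a KRAB motif, which was found in 144 of the 256 members present in GENCODE M21. A KRAB box that diverges at these positions would be missed, so the members without the motif may include KRAB proteins. Of the 144 with the motif, 94 rose (65.3%, against 42.7% of all genes tested), 12 fell (8.33%, against 34.5%) and 38 did not pass. Their median log2 fold change was 0.48. Of the 112 without the motif, 69 rose (61.6%), 17 fell (15.2%) and 26 did not pass, with a median of 0.34. Both classes count members with a PBS mean under 1 FPKM (21 in all), which could only be higher. The classes were not compared without them. KRAB members were the lower class, with a median mean level of 2.81 FPKM against 6.62 FPKM, and 5 of them against 38 of the others reached 10 FPKM. Their sum was 396 ± 20.2 FPKM with PBS and 656 ± 51.6 FPKM with nanoparticles, while that of members without the motif was 1029 ± 21.9 and 1261 ± 28.8 FPKM (SD, n = 3 each).

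Within the KRAB class the counts differed between levels of match to the box. Among the 6 members that matched 11 to 13 positions, 1 rose (16.7%, against 42.7% of all genes tested) and 2 fell (33.3%, against 34.5%). Their median was 0.05, and they are too few for a share to be read. Of 24 members with 14 or 15 matches 13 rose (54.2%) and 4 fell (16.7%), and of 52 with 16 matches 34 rose (65.4%) and 4 fell (7.69%). Of 46 with 17 matches 35 rose (76.1%) and 2 fell (4.35%), and of 16 with all 18 matches 11 rose (68.8%) and none fell. The medians were 0.35, 0.48, 0.67 and 0.43. The differences between these classes were not tested. The counts include members that could only be higher, such as Zfp119a, Zfp119b and Zfp458, each with 17 matches and a PBS mean under 1 FPKM.

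**Figure D2:**
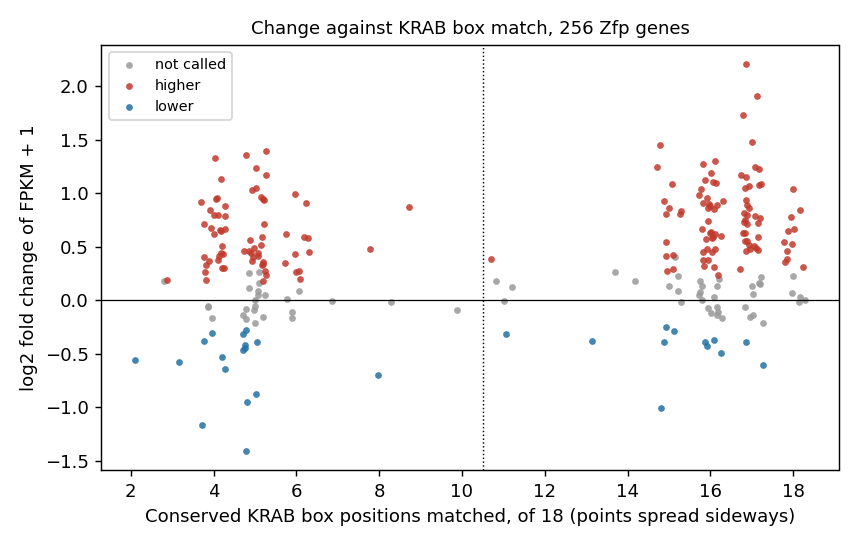
Log2 fold change of FPKM + 1 (y) against the number of 18 conserved KRAB positions matched (x, points spread sideways) for 256 Zfp genes, coloured by the limma call; the dotted line marks the limit for a KRAB motif. The scores fall into a group of 10 or fewer and a group of 11 or more, both mostly above 0, and none of the 16 genes with a score of 18 was called lower.

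The counts also differed between members with few and with many C2H2 fingers, a difference that was not tested. They too include members with a PBS mean under 1 FPKM, which could only be higher. Of 47 members with 1 to 5 fingers, 22 rose (46.8%, near the 42.7% of all genes tested) and 12 fell (25.5%, against 34.5%), and the median log2 fold change was 0.18. The 66 members with 6 to 9 fingers had 43 up (65.2%) and 11 down, the 74 with 10 to 13 had 51 up (68.9%) and 2 down, and the 63 with 14 or more had 44 up (69.8%) and 4 down. Members with few fingers were also more abundant, with a median PBS mean of 8.84 FPKM against 2.08 FPKM for those with 14 or more. Across 256 members, Spearman's rho of the log2 fold change was 0.14 with finger number, -0.13 with GC content of the transcript and -0.11 with its length, given as a description over genes that are not independent. In 6 members no C2H2 finger was matched, among them Zfp593os, which the name places opposite Zfp593 and which is a member by its symbol alone.

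The largest rise on the log2(FPKM + 1) scale belonged to Zfp959, a KRAB gene on chromosome 17 (GRCm38). Its FPKM was 1.65, 2.24 and 2.51 in PBS replicates 1 to 3 and 13.3, 12.5 and 14.4 in nanoparticle replicates 1 to 3. The groups did not overlap, and the means of 2.13 ± 0.443 and 13.4 ± 0.984 FPKM (SD, n = 3) differed 6.27-fold (log2 fold change 2.21, SE 0.11, limma adjusted p = 6.2e-08). Its neighbour Zfp119b had 0.909, 1.35 and 0.707 FPKM with PBS and 5.9, 6.81 and 6.5 FPKM with nanoparticles. The other neighbour, Zfp119a, had 0.615, 0.651 and 1.26 FPKM with PBS and 3.76, 3.9 and 4.65 FPKM with nanoparticles. Both had a PBS mean under 1 FPKM and are members only through the nanoparticle level, so their rise was a condition of being included and their p-values carry no weight beyond description. Every nanoparticle library was above every PBS library for both (Zfp119b 6.49-fold by the means, above the fold of Zfp959, log2 fold change 1.91, SE 0.12, limma adjusted p = 2.9e-07; Zfp119a 1.48, SE 0.14, limma adjusted p = 4.7e-06).

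These 3 genes are close relatives, each with 9 fingers and a KRAB score of 17. In GRCm38 Zfp119a spans chr17:55864892-55878930, Zfp959 chr17:55892093-55898928 and Zfp119b chr17:55938381-55949500. Of the 50-base words of each transcript, 16.6% (Zfp119a), 17.4% (Zfp959) and 23.0% (Zfp119b) occur in another gene, mostly in this group, so the authors' counting could have split reads between them and their separate values are uncertain. Their promoters are shown because the genes moved together: 250 bases before a RefSeq start site (GRCm38.p6), read 5′ to 3′ on the gene's strand, with the CCAAT box in capitals.
Zfp119a, chr17:55878954-55879203, minus strand: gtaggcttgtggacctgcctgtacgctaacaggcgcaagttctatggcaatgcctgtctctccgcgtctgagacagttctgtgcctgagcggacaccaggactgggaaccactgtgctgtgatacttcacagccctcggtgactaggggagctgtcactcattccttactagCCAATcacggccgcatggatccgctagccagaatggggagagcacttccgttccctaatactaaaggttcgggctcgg
Zfp959, chr17:55891843-55892092, plus strand: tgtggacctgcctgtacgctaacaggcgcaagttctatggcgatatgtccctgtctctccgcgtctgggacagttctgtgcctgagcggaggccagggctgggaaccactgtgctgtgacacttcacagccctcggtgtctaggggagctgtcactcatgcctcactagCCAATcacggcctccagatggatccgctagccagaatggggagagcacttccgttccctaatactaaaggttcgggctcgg
Zfp119b, chr17:55945260-55945509, minus strand: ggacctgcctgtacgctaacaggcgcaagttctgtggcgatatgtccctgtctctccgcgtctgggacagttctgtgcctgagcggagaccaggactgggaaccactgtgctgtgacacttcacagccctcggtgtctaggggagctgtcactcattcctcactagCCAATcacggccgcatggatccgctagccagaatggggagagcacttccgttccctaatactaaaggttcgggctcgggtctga
Over the aligned bases, Zfp959 and Zfp119b were 98.0% identical, Zfp119a and Zfp119b 96.7%, and Zfp119a and Zfp959 95.5%. The CCAAT box, on the strand shown, begins 78, 81 and 84 bases before the start site of Zfp119a, Zfp959 and Zfp119b. RefSeq gives Zfp119b a second start site farther upstream, whose window was 63.9% and 56.3% identical to those of Zfp119a and Zfp959, and the Zfp119b window shown lies within an intron of the GENCODE gene. CCAAT, searched on both strands, occurred in 51.8% of the 218 members with a RefSeq window and in 37.5% of 27025 genes, with 47.1% of the members that rose and 48.0% of those that fell. Such a match describes letters in a window and not a binding site.

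Other members with large rises lay elsewhere in the genome. Zfp949, a KRAB gene on chromosome 9, had 1.77, 1.4 and 1.56 FPKM with PBS and 7.65, 7.77 and 7.13 FPKM with nanoparticles (log2 fold change 1.73, SE 0.08, limma adjusted p = 5.0e-08). Zfp729b on chromosome 13, with 30 fingers, had 2.02, 2.03 and 2.32 FPKM against 6.45, 7.14 and 9.14 FPKM. Of the sequence words of its transcript, counted as above, 39.9% occur in another gene, so its separate values are uncertain. The nanoparticle libraries were spread more widely for Zfp729b than for Zfp949, with no overlap with PBS for either. Zfp821, with 2 fingers and no KRAB motif, had 2.57, 3.05 and 2.63 FPKM against 9.31, 8.77 and 8.63 FPKM. Zfp655 had 4.88, 5.23 and 4.98 FPKM against 14, 13.8 and 15.7 FPKM, and Zfp428, with 1 finger, 5.45, 4.52 and 4.33 FPKM against 14, 13.6 and 12.7 FPKM. The fold differences of the means were 3.57 for Zfp729b, 3.24 for Zfp821, 2.89 for Zfp655 and 2.82 for Zfp428, all called by limma.

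Far fewer members fell, and 6 of the 8 that fell the most on the log2(FPKM + 1) scale have no KRAB motif, or 5 of the 8 when ranked by the ratio of the means. The motif score can miss a divergent KRAB box, and Zfp746 among the 6 matched 8 of 18 positions. Zfp710, among the 6 most abundant members and on chromosome 7, had 41.6, 35 and 39.6 FPKM with PBS and 13.6, 13.1 and 15.1 FPKM with nanoparticles. Its mean of 38.7 ± 3.4 FPKM was 2.77-fold above the 14 ± 1.05 FPKM of treated cells (SD, n = 3; log2 fold change -1.41, SE 0.08, limma adjusted p = 1.6e-07). Zfp41 had 2.4, 2.36 and 3.25 FPKM against 0.936, 0.463 and 0.503 FPKM, and Zfp61, a KRAB gene, had 3.1, 3.37 and 2.73 FPKM against 0.918, 1.18 and 0.943 FPKM. Their log2 fold changes were -1.17 (SE 0.13, limma adjusted p = 2.4e-05) and -1.01 (SE 0.09, limma adjusted p = 5.4e-06). No library of one group reached the range of the other for these 3 genes. With a nanoparticle mean of 0.634 FPKM, Zfp41 is a member only through its PBS level. Its fall was thus a condition of being included, and its p-value carries no weight beyond description.

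Several of the other falling members have described roles. Zfp277, a partner of the Polycomb protein Bmi1, had 15.6, 16.9 and 16.3 FPKM with PBS and 7.57, 7.9 and 8.38 FPKM with nanoparticles. Zfp652, a partner of the corepressor Cbfa2t3, had 8.65, 9.02 and 8.84 FPKM against 4.81, 4.01 and 4.22 FPKM. Zfp652 shares 11.9% of its sequence words with another gene and overlaps Abi3, on the opposite strand, over 18.9% of its exons. Its values are therefore less certain. Zfp746 (PARIS), a repressor of Ppargc1a, had 6.39, 6.63 and 6.85 FPKM against 3.47, 3.54 and 4.12 FPKM. In each the treated libraries were all below the PBS libraries, with log2 fold changes of -0.95, -0.88 and -0.70. Zfp422 (15.7 ± 1.02 against 9.69 ± 0.629 FPKM) and the KRAB gene Zfp324 (3.67 ± 0.158 against 2.06 ± 0.205 FPKM; SD, n = 3) fell by 0.64 and 0.61 on the same scale. All 5 passed at limma adjusted p of 7.9e-05 or less.

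**Figure D3:**
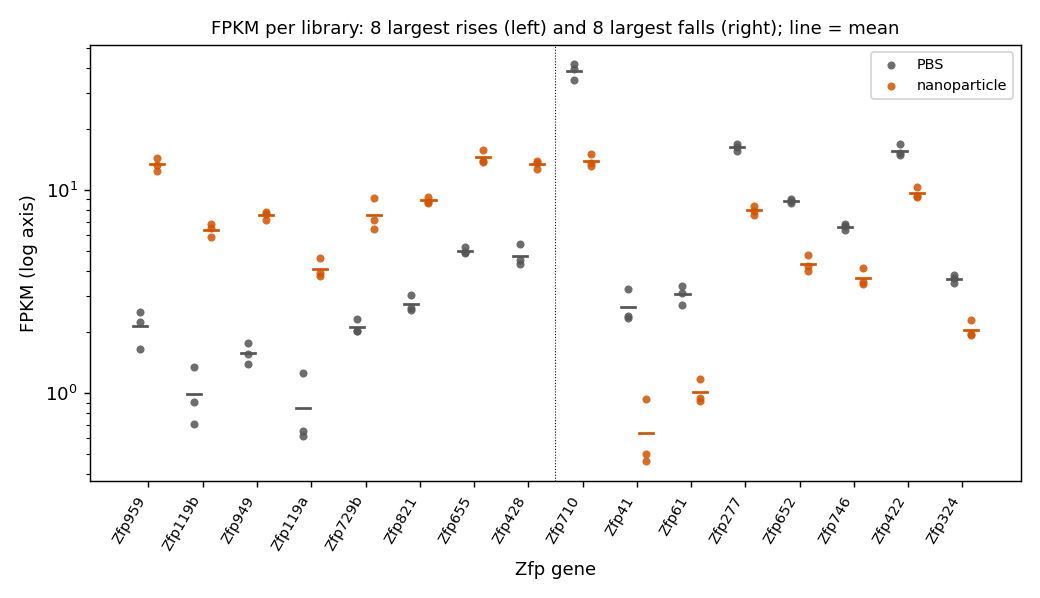
FPKM (log axis) of the 8 Zfp genes with the largest rise and the 8 with the largest fall among those whose groups did not overlap, with a point per library (3 PBS, 3 nanoparticle) and a line at each mean. The nanoparticle points of Zfp959 (12.5 to 14.4 FPKM) stand above its PBS points (1.65 to 2.51 FPKM), and those of Zfp710 (13.1 to 15.1 FPKM) below (35 to 41.6 FPKM).

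Many neighbouring Zfp genes changed in the same direction. Runs of at least 4 members with gaps of at most 250 kb numbered 14 and held 104 members. Of these, 77 rose (74.0%, against 42.7% of all genes tested) and 8 fell (7.69%, against 34.5%), with a median log2 fold change of 0.48. Outside these runs 86 of 153 members rose (56.2%) and 21 fell (13.7%), with a median of 0.30. Both counts include members with a PBS mean under 1 FPKM, which could only be higher. Genes in a run are related by descent and can share reads, so they are not independent. Members that share over 10% of their 50-base words with another gene, or overlap one, numbered 62. Of these, 39 rose (62.9%) and 5 fell (8.06%). Of the other 195, 124 rose (63.6%) and 24 fell (12.3%), with the same median of 0.41 in both sets.

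The KRAB cluster at chr13:67254918-67729173 held 13 members, with a median log2 fold change of 0.88. Of these, 12 rose (92.3%, against 42.7% of all genes tested), none fell (against 34.5%) and 1 did not pass. Of the 12, Zfp458, Zfp738, Zfp874a and Zfp874b had a PBS mean under 1 FPKM, so they could be members only by being higher with nanoparticles, and of the other 9 members 8 rose. A cluster at chr17:21423227-22456689 held 14 KRAB members, of which 13 rose (92.9%, median 0.77), Zfp758 and Zfp983 among them being members only through their nanoparticle level. The exception was Zfp52, named after its value was seen, at 5.27 ± 0.328 FPKM with PBS and 3.7 ± 0.853 FPKM with nanoparticles (SD, n = 3; log2 fold change -0.43, SE 0.12, limma adjusted p = 0.0085). On chromosome 7, 10 of 12 members between 29768552 and 30169750 rose (83.3%) and none fell, and 9 of 10 between 127233061 and 127885996 rose (90.0%) and none fell. All 5 members between 20345136 and 20605409 on chromosome 9 rose.

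A second cluster on chromosome 17 was less uniform (chr17:32765496-33631779, median 0.20). Of its 11 members 5 rose (45.5%, near the 42.7% of all genes tested) and 1 fell (9.09%, against 34.5%). Of the 5, Zfp870 had a PBS mean under 1 FPKM and could only be higher, and of the other 10 members 4 rose. The cluster at chr6:47835661-48086593 went the other way: of its 6 members 3 fell, 1 rose and 2 did not pass, with a median of -0.17. These 6 were named after their values were seen. Zfp746 (-0.70), Zfp777 (-0.38) and Zfp398 (-0.32) fell, Zfp956 rose (0.43), and Zfp282 (-0.01) and Zfp212 (0.12) did not pass. Zfp398, Zfp282, Zfp212 and Zfp777 are also 4 of the 6 members with the weakest KRAB match, so the cluster and that class share genes.

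**Figure D4:**
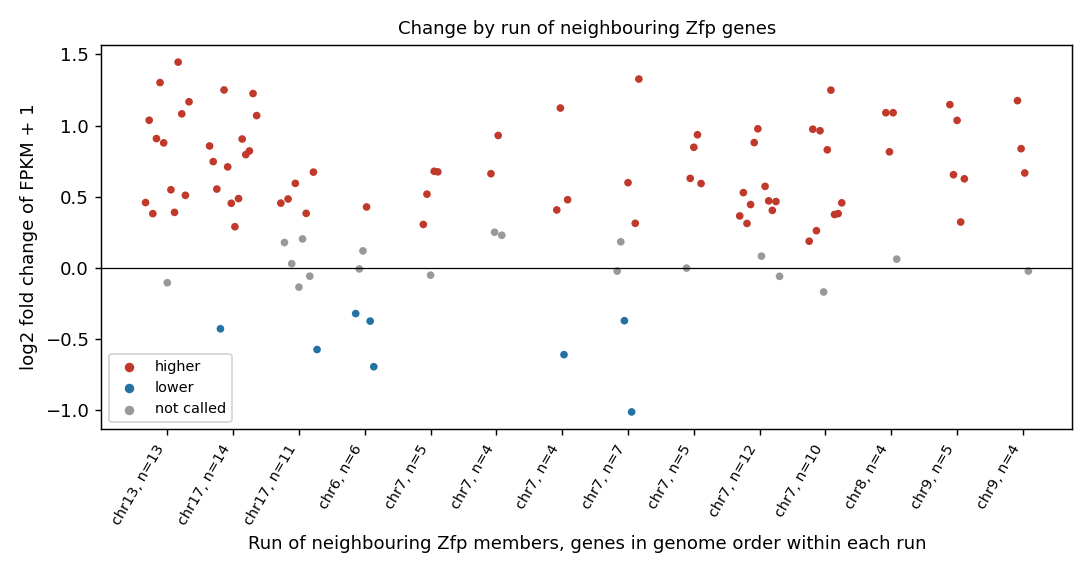
Log2 fold change of FPKM + 1 (y) of the 104 Zfp genes that lie in 14 runs of neighbours, in genome order within each run (x, chromosome and number of genes), coloured by the limma call. The run of 13 genes on chromosome 13 holds 12 genes called higher and none lower, and the run of 6 on chromosome 6 holds 3 called lower.

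The cyclic AMP response element TGACGTCA, the palindrome bound by Creb and Atf factors, was among 4 motifs searched on both strands in the 250 bases before the start. It occurred in 10 of the 218 members with a RefSeq window (4.59%), in 1.77% of 27025 genes of any level, and in 3.32% of the 8104 tested genes with a window. All 10 were among the 138 windowed members that rose (7.25%), and none among the 25 that fell. Over all tested genes with a window the element was in 4.37% of those that rose and in 2.15% of those that fell. The 10 are shown with up to 12 bases on each side, the element in capitals, read 5′ to 3′ on the gene's strand (GRCm38.p6), since all of these genes were called higher.
Zfp335, chr2:164911797-164911828, minus strand: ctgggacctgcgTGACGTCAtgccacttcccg
Zfp868, chr8:69625184-69625215, minus strand: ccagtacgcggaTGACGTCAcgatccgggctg
Zfp426, chr9:20492749-20492780, minus strand: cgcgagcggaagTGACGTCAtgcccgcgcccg
Zfp266, chr9:20521420-20521448, minus strand: cggaaatggaagTGACGTCAcggccagcc
Zfp595, chr13:67332569-67332600, minus strand: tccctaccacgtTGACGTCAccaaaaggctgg
Zfp953, chr13:67360605-67360636, minus strand: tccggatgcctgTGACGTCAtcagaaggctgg
Zfp874a, chr13:67451625-67451646, minus strand: tctgcagcacggTGACGTCAca
Zfp874b, chr13:67484254-67484277, minus strand: tctgtagcacggTGACGTCAcaga
Zfp72, chr13:74390840-74390871, minus strand: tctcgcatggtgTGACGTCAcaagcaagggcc
Zfp523, chr17:28177122-28177153, plus strand: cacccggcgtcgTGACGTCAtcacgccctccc
The element begins 10 to 66 bases before the start site in these genes. Zfp595, Zfp953, Zfp874a and Zfp874b lie in the chromosome 13 cluster, and Zfp426 and Zfp266 in the chromosome 9 run. The log2 fold changes were 1.30 for Zfp874a, 1.09 for Zfp868, 1.04 for Zfp426 and Zfp595, 0.91 for Zfp335, 0.88 for Zfp874b, 0.59 for Zfp523, 0.38 for Zfp953, 0.32 for Zfp266 and 0.27 for Zfp72. Apart from Zfp523 these genes were named after their values were seen, and Zfp874a, Zfp874b and Zfp72 are members only through their nanoparticle level. The calls of Zfp266 and Zfp72 were lost in several of the alternatives tried, each of them for instance with upper-quartile scaling. Over all tested genes with a window, 43.0% of 8104 rose and 34.4% fell, and of the 269 with the element 56.5% rose and 22.3% fell. CCAAT is given above. The other 2 motifs were rare in the members, the interferon-stimulated element (GAAA, 2 bases of any kind, GAAA) in 1.83% (3.46% of all genes) and the NF-kB element (GGGA, any base, TTTCC) in 0.917% (0.414%).

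The list of members that act in innate immune signalling holds 3 genes, too few for a share to be read; 2 fell and 1 rose, where 34.5% and 42.7% of all genes tested did. Zfp91, a ubiquitin ligase of the non-canonical NF-kB pathway and 1 of the 6 most abundant members, had 28, 30 and 31 FPKM with PBS and 21.3, 22.2 and 23.5 FPKM with nanoparticles (log2 fold change -0.39, SE 0.06, limma adjusted p = 2.9e-04). Zfp64, which supports NF-kB activation by Toll-like receptors, had 13.9, 12.2 and 13 FPKM against 8.71, 8.72 and 8.59 FPKM (-0.53, SE 0.07, limma adjusted p = 5.7e-05). Zfp341, an activator of Stat3 transcription, rose from 2.06 ± 0.101 to 2.78 ± 0.104 FPKM (SD, n = 3; 0.30, limma adjusted p = 0.0049). The groups did not overlap for any of the 3.

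Of 7 promoter and chromatin loop factors 5 rose (71.4%, against 42.7% of all genes tested) and 1 fell (14.3%, against 34.5%). Among all members without a KRAB motif, as these are, 61.6% rose and 15.2% fell, and the 7 are too few for a share to be read. Zfp410, which activates the NuRD gene Chd4, had 18.3, 15.5 and 15.3 FPKM with PBS and 30.2, 33.5 and 34.3 FPKM with nanoparticles (log2 fold change 0.96, SE 0.08, limma adjusted p = 3.0e-06). Chd4 itself, named after its value was seen, went from 61.8 ± 3.66 to 78 ± 8.55 FPKM (SD, n = 3; 0.33, SE 0.08, limma adjusted p = 0.0039). Whether its rise is linked to that of Zfp410 was not tested. Among other listed NuRD genes, Mbd3 (-0.89), Mta1 (-0.86), Rbbp7 (-0.38) and Hdac2 (-0.26) fell. Hdac1 (0.47), Mta2 (0.24) and Chd3 (0.23) rose, and Rbbp4, Gatad2a and Gatad2b did not pass. Zfp384 had 16.4, 17.4 and 17.6 FPKM against 30.5, 31.8 and 29.2 FPKM, which is 0.80 on the log2 scale. Zfp281 (0.71), Zfp523 (0.59) and Zfp740 (0.40) also rose. The relatives Zfp281 and Zfp148, which bind GC-rich promoters, moved in opposite directions, Zfp148 from 5.69 ± 0.401 to 4.04 ± 0.646 FPKM (SD, n = 3; -0.42, limma adjusted p = 0.0045). Zfp143, a factor at chromatin loop anchors, was at 11.1 ± 1.13 and 10.4 ± 1.26 FPKM (SD, n = 3) and did not pass (limma adjusted p = 0.42).

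Of 8 members that act on RNA or in translation, 4 rose (50%, near the 42.7% of all genes tested), 1 fell (12.5%, against 34.5%) and 3 did not pass. They are too few for a share to be read. Zfp598, the ubiquitin ligase that marks collided ribosomes, had 22.4, 19.2 and 19.8 FPKM with PBS and 42.6, 39.8 and 39 FPKM with nanoparticles (log2 fold change 0.95, SE 0.07, limma adjusted p = 9.9e-07). Zfp346, which binds double-stranded RNA, had 13.4, 11.4 and 13.3 FPKM against 28.1, 26.8 and 27.1 FPKM (1.05, SE 0.07, limma adjusted p = 5.9e-07). The means differed 1.98-fold for Zfp598 and 2.15-fold for Zfp346, with no overlap of the groups. Zfp830, a splicing factor (0.79), and Zfp622, which acts in maturation of the large ribosomal subunit (0.58), rose as well. The RNA-binding Zfp106 had overlapping groups, 33.8, 31.1 and 37.1 FPKM against 25.7, 26.5 and 31.3 FPKM, and was called lower (-0.28, limma adjusted p = 0.015), a call lost without PBS replicate 3 (0.061) or nanoparticle replicate 2 (0.055). Zfp326 (0.05) and Zfp638 (-0.17) did not pass, though without nanoparticle replicate 3 Zfp638 was at -0.31 (limma adjusted p = 0.015).

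Zfp207 (BuGZ), a partner of the spindle checkpoint protein Bub3, was the most abundant member. It had 122, 117 and 121 FPKM with PBS and 122, 127 and 139 FPKM with nanoparticles and did not pass (log2 fold change 0.11, SE 0.06, limma adjusted p = 0.13), though without nanoparticle replicate 1 it did (0.045). The nucleolar protein Zfp330 was next in level, at 29.7, 32.1 and 32.5 FPKM against 46.3, 51 and 49.4 FPKM, and rose by 0.62 on the log2 scale (SE 0.06, limma adjusted p = 7.9e-06). Of the 6 members at the top in level, Zfp330 and Zfp598 rose, Zfp710, Zfp106 and Zfp91 fell, and Zfp207 did not pass.

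KRAB proteins with a described part in imprinting or in retroelement silencing were up or did not pass. Of the 4 that are members, 3 rose (75%, against 42.7% of all genes tested) and none fell (against 34.5%), too few for a share to be read. Zfp809, which binds the primer binding site of murine leukaemia viruses, had 7.58, 7.6 and 10.6 FPKM with PBS and 14.2, 15.7 and 18.2 FPKM with nanoparticles (log2 fold change 0.84, SE 0.13, limma adjusted p = 1.8e-04). Zfp445, which maintains genomic imprints, had 9.17, 8.22 and 10.9 FPKM against 16.2, 16.3 and 21.4 FPKM (0.86, SE 0.12, limma adjusted p = 1.1e-04). The third libraries were the highest of their group for both genes, and the groups did not overlap. Zfp568, a repressor of the placental Igf2 promoter, had 2.66, 1.07 and 2.66 FPKM against 3.38, 3.26 and 3.89 FPKM (0.57, limma adjusted p = 0.023), and lost its call without nanoparticle replicate 3 (0.05). Zfp932 did not pass (0.16, limma adjusted p = 0.11) but did so with the replicate numbers as a block (0.04) and without nanoparticle replicate 1 (0.034). Its transcript shares 37.0% of its sequence words with another gene, so the values of Zfp932 are uncertain. Zfp57 and Zfp708, of the same list, had means under 1 FPKM, though Zfp708 was at 1.42 FPKM in nanoparticle replicate 3.

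Of 8 members known as partners of corepressors without a KRAB motif, 6 rose (75%, against 42.7% of all genes tested) and none fell (against 34.5%). Among all members without the motif 61.6% rose and 15.2% fell, and the 8 are too few for a share to be read. Zfp219 had 7.3, 6.72 and 6.32 FPKM with PBS and 11, 10.7 and 11.1 FPKM with nanoparticles (log2 fold change 0.62, SE 0.07, limma adjusted p = 2.5e-05). Zfp687 (0.44) and Zfp592 (0.36), which bind the chromatin reader Zmynd8, Zfp516 (0.43) and Zfp217 (0.37), a partner of CtBP and CoREST, rose to a smaller extent. Zfp451, a SUMO ligase, was called at 0.20 (limma adjusted p = 0.042), and the call was lost without any 1 library other than nanoparticle replicate 1: 0.093, 0.12 and 0.058 without PBS replicates 1, 2 and 3, and 0.06 and 0.13 without nanoparticle replicates 2 and 3. It was also lost with upper-quartile scaling (0.09, limma adjusted p = 0.32). Zfp644 (-0.05) and Zfp827 (0.09) did not pass.

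Of 4 members linked to p53 or DNA damage, 3 rose (75%, against 42.7% of all genes tested) and 1 fell (25%, against 34.5%). They are too few for a share to be read. Zfp830 is among the RNA factors above. Zfp420 (Apak), a repressor of p53 activity, had 0.956, 0.898 and 1.17 FPKM with PBS and 1.94, 1.41 and 1.86 FPKM with nanoparticles (log2 fold change 0.44, SE 0.10, limma adjusted p = 0.003). Zfp385a (Hzf), a p53 target that acts with p53 on cell-cycle arrest genes, had 25, 24.5 and 23.6 FPKM against 19.9, 20.1 and 18.2 FPKM (-0.31, SE 0.06, limma adjusted p = 0.0011). Neither pair of groups overlapped. Zfp668 had overlapping groups (4.14, 2.19 and 3.29 FPKM against 4.88, 4.1 and 4.16 FPKM), and its call (0.38, limma adjusted p = 0.045) was lost without PBS replicate 2 (0.15), PBS replicate 3 (0.06), nanoparticle replicate 1 (0.13) or nanoparticle replicate 2 (0.06).

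Of 5 members listed as SCAN type, a class named for a domain that pairs such proteins with one another, 3 rose and none fell. These are 60% up, against 42.7% of all genes tested, and too few for a share to be read. A SCAN pattern searched in the coding sequences was found in 8 members, of which 4 rose and none fell, and was not matched in Zfp446 of the list. The share of the 8 that rose was near that of all genes tested. Zfp397 had 4.79, 4.1 and 5.64 FPKM with PBS and 9.88, 10 and 13 FPKM with nanoparticles (log2 fold change 1.03, SE 0.12, limma adjusted p = 3.1e-05). Zfp446 (0.48) and Zfp263 (0.44) rose less. Zfp444 did not pass (0.25, limma adjusted p = 0.056) but did so with the replicate block (0.016), without PBS replicate 2 (0.038) and without nanoparticle replicate 3 (0.011). Zfp213 was among the 5 members nearest to no change (-0.01), with 1.15, 0.94 and 1.18 FPKM against 1.12, 1.05 and 1.06 FPKM. The others were Zfp1001, Zfp60, Zfp526 and Zfp318, whose log2 fold changes lay between 0.00 and 0.01 in size.

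The corepressor machinery that KRAB proteins recruit moved in both directions, near the background. Of 25 genes of this list, which are not Zfp genes, 9 rose (36%, against 42.7% of all genes tested), 9 fell (36%, against 34.5%) and 7 did not pass, with a median log2 fold change of 0.02. Trim28 had 102, 104 and 99.2 FPKM with PBS and 98.1, 88.8 and 85.1 FPKM with nanoparticles and was called lower (-0.17, SE 0.06, limma adjusted p = 0.033). That call was lost when PBS replicate 1 (0.073), 2 (0.11) or 3 (0.05), or nanoparticle replicate 2 (0.1) or 3 (0.08), was left out. Setdb1 had 23.5, 21.7 and 22.9 FPKM against 35.1, 35.4 and 39 FPKM (0.66, limma adjusted p = 6.4e-06). Smarcad1, a remodeller that binds Trim28, went from 18.5 ± 0.168 to 45.9 ± 2.86 FPKM (SD, n = 3; 1.27, limma adjusted p = 4.9e-08). The groups did not overlap for either of these genes.

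Genes of heterochromatin were found in both directions, and 2 genes of maintenance DNA methylation fell. The HP1 gene Cbx1 (log2 fold change 0.33, limma adjusted p = 2.4e-04), Atf7ip, the partner of Setdb1 (0.97), and Tasor of the HUSH complex (0.60) rose. The HP1 gene Cbx5 fell (-0.70, limma adjusted p = 3.7e-05), and Mphosph8 (-0.01) and Pphln1 (-0.09), also of HUSH, did not pass. All of these were named after their values were seen. Cbx3, which encodes another HP1 protein, had 71.4, 85.1 and 91.1 FPKM with PBS and 23.6, 25.5 and 27.2 FPKM with nanoparticles (log2 fold change -1.65, SE 0.09, limma adjusted p = 1.2e-07). The maintenance methyltransferase Dnmt1 went from 117 ± 7.42 to 43 ± 4.16 FPKM (-1.43) and its partner Uhrf1 from 86 ± 2.77 to 30.2 ± 0.733 FPKM (-1.48; SD, n = 3). Each group lay apart from the other for Cbx3, Dnmt1 and Uhrf1.

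The other zinc finger families are smaller. Of 36 Zbtb genes 18 rose and 11 fell, of 17 Klf and Sp genes 9 rose and 5 fell, and of 15 Zc3h genes, which carry CCCH fingers, 8 rose and 3 fell. The Zscan and Zkscan genes had 12 of 15 up and 1 down, with a median log2 fold change of 0.75. A KRAB motif was also found in 41 genes with other names, of which 15 rose and 7 fell, with a median of 0.14 against 0.48 for the KRAB members. Over all genes tested 42.7% rose and 34.5% fell. These differences between families were not tested.

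**Figure D5:**
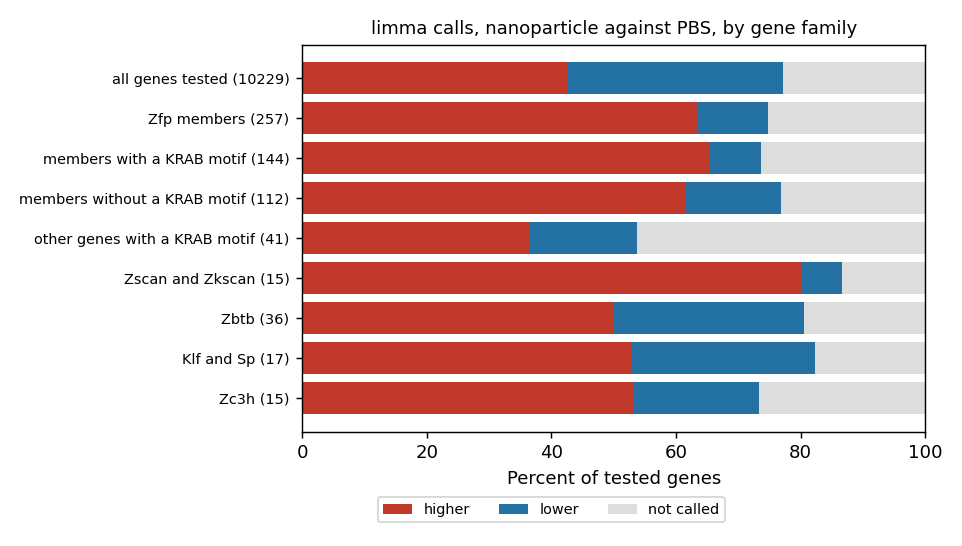
Percent of tested genes called higher, lower or not called by limma (x, stacked from 0) for all genes tested, the Zfp members with and without a KRAB motif, and other zinc finger families (y, number of genes in parentheses). The Zfp members have 63.4% higher and 11.3% lower, against 42.7% and 34.5% of all genes tested.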

How the data were processed

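The table deposited by the authors held FPKM, 1 column per library; the unit was inferred from the values, since no header names it. The submitters' processing notes list STAR, featureCounts, GRCm38 and mm10; versions, normalization and total depth are not given in the sources used here. One column carries a suffix to the name of PBS replicate 1. The 509 rows without an Ensembl gene identifier (0.427% to 0.497% of FPKM) were left out.

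The 10229 genes that averaged 1 FPKM or more were fitted with limma 3.58.1 (R 4.3.3, intensity trend, treatment only) on log2(FPKM + 1), two-sided, Benjamini-Hochberg over all of them, threshold 0.05. The members, gene lists, classes and motifs were chosen with earlier results of these data known. Genes named were the 8 largest rises and 8 largest falls with no overlap, the 6 highest in level, the listed roles, the 5 nearest 0, the 4 corepressor genes with the smallest p with Trim28 and Setdb1, and the 3 on each side of the threshold.

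KRAB and finger motifs were read from the longest GENCODE M21 coding sequence, in place of the RefSeq protein planned. Promoters are from RefSeq (GRCm38.p6), for 218 members. Libraries with the same replicate number in the labels had correlated deviations (0.13, 0.115 and 0.354, all above 0.1), and the numbers were taken as pairs for a blocked fit on that rule alone: PBS replicate 2 with nanoparticle replicate 1 gave 0.134, and the other unmatched pairs -0.261 to 0.011. Other alternatives were scaling, pseudocount, filter, trend and leaving out libraries.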

Additional observations from a re-analysis of the deposited data

How the results depend on the processing

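No called member changed direction in any alternative, and 169 of the called members kept their call in every alternative fitted to the same members. With a pseudocount of 0.1 FPKM the median log2 fold change was 0.53, and with 10 FPKM it was 0.13. A filter at 5 FPKM left fewer members, of which 66 rose and 16 fell (22 and 1 with a KRAB motif, 44 higher without). Leaving out each library gave 153 to 165 members higher, 26 to 34 lower and medians of 0.38 to 0.44. Upper-quartile scaling moved the median of all tested genes by -0.11 and gave 145 members higher and 37 lower (79.7% of calls higher, against 84.9%). Over all tested genes it gave 36.5% higher and 40.7% lower, where the main fit had 42.7% and 34.5%. Median-ratio scaling gave 155 members higher and 35 lower, and over all tested genes 38.5% and 38.6%. The upward lean of the background thus depends on the scaling. With the replicate block 170 rose and 31 fell: 9 member calls were gained, none lost, and among the named genes only Zfp932 and Zfp444 changed their call. Of 996 alternatives for 68 named genes, 958 kept call and direction, 29 lost a call, 9 gained one and none reversed. Without the filter on low values the calls of Zfp451, Zfp568, Zfp668 and Trim28 were lost (limma adjusted p = 0.069, 0.079, 0.12 and 0.051), with median-ratio scaling those of Zfp451 (0.13) and Zfp668 (0.084), with upper-quartile scaling that of Zfp668 (0.12), and with no intensity trend that of Trim28 (0.055). Leaving out replicate 3 of both groups, or members that share sequence, was chosen after seeing the data. A trimmed-mean scaling was planned and not run, since its weights need counts. Depth is unknown, so counting error could not be set beside low FPKM values.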
